A study of Arabidopsis thaliana with 32 samples.

Results

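The genes described here are 44 nuclear genes of Arabidopsis thaliana whose products are parts of photosystem I (PSI), photosystem II (PSII), their light-harvesting antennae, or the small subunit of Rubisco. They were listed by gene identifier and by the known place of the product, with earlier results of these data known. They are 44 of the 33602 genes in the count table, and some further photosystem and antenna genes lie outside the list. All 44 passed the filter on low counts (over 1 cpm, a count scaled to library size, in at least 2 libraries), as did 20145 genes in all.

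Photosystem II splits water and photosystem I reduces ferredoxin, and both are fed with energy by chlorophyll a/b-binding antenna proteins of the LHCB (PSII) and LHCA (PSI) families. Rubisco fixes carbon dioxide and pairs a chloroplast-encoded large subunit with small subunits encoded by the nuclear RBCS family. The nuclear genes for these proteins are known to be switched on by light through phytochromes and cryptochromes, to follow the circadian clock, and to be activated by the GLK transcription factors and repressed by PIF transcription factors in the dark.

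The study asked how seedlings respond to shade, to warmth and to both at once. Wild-type Col-0 seedlings were grown on vertical plates for 3 days in constant white LED light at 21 °C, then either stayed there (21WL) or moved to low red to far-red light at 21 °C (21FR, a red to far-red ratio of 0.6), to white light at 30 °C (30WL), or to both changes together (30FR). Whole seedlings, about 25 per library, were frozen in the treatment after 1, 3, 6 or 24 h, and poly(A) RNA was sequenced in 2 replicates of each of the 16 groups, 32 libraries in all. The replicates are described as biological, and no plate or day is labelled, so the p-values measure the spread between these samples.

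Library totals ran from 7606788 to 28170966 counts, with a median of 18502913. The library with the lowest total, 30WL 6 h replicate 1, also had the highest share of multiply mapped reads, 50.4% against 10.5% at the lowest and 17.2% at the median. The other 30WL library at 6 h had 38.8%. Both 21FR libraries at 3 h were also high, at 35.3% and 36.5%, against 27.4% and 13.6% in 21WL at that time. The part of this share in the comparisons was not tested. The treatment labels were borne out by marker genes: the shade marker PIL1 was higher in 21FR than in 21WL by 4.69 to 6.02 on the log2 scale, and the heat-shock chaperone HSP90.1 was higher by 2.68 to 5.71 in 30WL and by 3.44 to 5.87 in 30FR. Whole seedlings mix green shoots and roots, and in such bulk libraries fewer photosynthetic cells and less RNA per cell cannot be told apart. The 8 root marker genes examined were above 3 cpm in every library, and their summed level ran from 2293 to 3916 cpm. Most of that sum came from the beta-glucosidase gene PYK10.

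The 44 genes fall into 6 role groups. The 8 LHCII genes encode the trimeric main antenna of PSII, and are LHCB1.1 (AT1G29920), LHCB1.2 (AT1G29910), LHCB1.3 (AT1G29930), LHCB1.4 (AT2G34430), LHCB1.5 (AT2G34420), LHCB2.1 (AT2G05100), LHCB2.2 (AT2G05070) and LHCB3 (AT5G54270). A further 5 genes encode the minor, monomeric PSII antennae, and are LHCB4.1 (AT5G01530), LHCB4.2 (AT3G08940), LHCB4.3 (AT2G40100), LHCB5 (AT4G10340) and LHCB6 (AT1G15820). The PSI antenna is represented by 5 genes, LHCA1 (AT3G54890), LHCA2 (AT3G61470), LHCA3 (AT1G61520), LHCA4 (AT3G47470) and LHCA6 (AT1G19150). LHCA1 to LHCA4 encode the belt around the PSI core, and LHCA6 a linker between PSI and the chloroplast NDH complex.

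The PSI subunits are encoded by 12 genes. PSAD1, PSAD2, PSAE1 and PSAE2 (AT4G02770, AT1G03130, AT4G28750, AT2G20260) encode the stromal docking ridge for ferredoxin. PSAF (AT1G31330) and PSAN (AT5G64040) encode the plastocyanin side, PSAG (AT1G55670) and PSAK (AT1G30380) peripheral membrane subunits, and PSAH1, PSAH2, PSAL and PSAO (AT3G16140, AT1G52230, AT4G12800, AT1G08380) the side that binds LHCII. The PSII subunits have 10 genes. PSBO1, PSBO2, PSBP1, PSBQ1 and PSBQ2 (AT5G66570, AT3G50820, AT1G06680, AT4G21280, AT4G05180) encode the extrinsic proteins that shield the water-splitting centre, and PSBR (AT1G79040) a protein that helps hold them. PSBS (AT1G44575) is the sensor of excess light for non-photochemical quenching, and PSBW, PSBX and PSBY (AT2G30570, AT2G06520, AT1G67740) encode small membrane subunits. The Rubisco small subunit is encoded by RBCS1A (AT1G67090), RBCS1B (AT5G38430), RBCS2B (AT5G38420) and RBCS3B (AT5G38410).

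Some of these genes are near-identical copies, and the authors counted uniquely mapped reads, so their levels are known only in part. In RefSeq transcripts, 32 of the 44 genes had no 50-base window shared with another gene, while 4 had under 80% unique windows: LHCB2.2 (71.8%), LHCB2.1 (77.3%), RBCS2B (78.6%) and LHCB1.1 (79.5%). Of the 44 gene models, 15 overlap another annotated gene. The authors counted reads by strand. Per kilobase of unique sequence, the mean level over all libraries was highest for RBCS1A (19980.0 cpm per kb), followed by RBCS3B (10010.0), LHCB1.3 (7740.0), RBCS2B (7001) and LHCB1.5 (6308). The lowest levels on that scale were those of LHCA6 (178) and LHCB4.3 (118).

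Several of these genes lie beside each other and have promoters that can be compared letter by letter, and 2 such neighbour pairs are shown because their members differed in the values below. On chromosome 2, LHCB1.5 and LHCB1.4 stand head to head with 1038 bases between them, and on chromosome 5 the genes RBCS3B, RBCS2B and RBCS1B follow each other on the minus strand, with 2264 and 1095 bases between neighbours. The windows are the 250 bases before each gene start in RefSeq on TAIR10.1, for LHCB1.4 at chr2:14524357-14524606 on the plus strand, for LHCB1.5 at chr2:14523569-14523818, for RBCS1B at chr5:15385321-15385570 and for RBCS2B at chr5:15382072-15382321, the last 3 on the minus strand. They are written 5′ to 3′ on the strand of the gene, and capitals mark matches on either strand to the motifs CACGTG (G-box), GATAAG (I-box), AAAAATCT (a site known to bind the clock factor CCA1) and CCAATC (a site known to bind GLK factors).
LHCB1.4: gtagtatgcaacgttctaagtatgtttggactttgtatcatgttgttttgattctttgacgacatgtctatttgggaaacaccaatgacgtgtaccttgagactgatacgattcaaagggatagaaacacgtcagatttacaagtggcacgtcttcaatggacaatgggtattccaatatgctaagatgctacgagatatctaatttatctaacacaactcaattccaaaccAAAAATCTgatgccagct
LHCB1.5: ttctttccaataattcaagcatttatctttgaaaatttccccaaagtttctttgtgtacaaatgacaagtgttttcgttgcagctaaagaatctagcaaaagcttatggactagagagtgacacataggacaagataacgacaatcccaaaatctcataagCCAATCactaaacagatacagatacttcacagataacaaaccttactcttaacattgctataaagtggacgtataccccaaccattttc
RBCS1B: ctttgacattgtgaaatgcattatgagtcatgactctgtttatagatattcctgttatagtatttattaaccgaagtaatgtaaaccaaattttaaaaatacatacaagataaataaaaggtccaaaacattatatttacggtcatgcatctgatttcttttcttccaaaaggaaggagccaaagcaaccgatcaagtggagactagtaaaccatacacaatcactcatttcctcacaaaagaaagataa
RBCS2B: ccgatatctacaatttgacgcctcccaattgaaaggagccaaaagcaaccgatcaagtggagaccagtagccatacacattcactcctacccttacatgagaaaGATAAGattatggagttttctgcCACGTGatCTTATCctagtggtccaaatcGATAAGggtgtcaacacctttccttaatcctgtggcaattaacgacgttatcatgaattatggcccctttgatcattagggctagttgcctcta

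The LHCB1.4 window held a CCA1 site 18 bases before the gene start, and the LHCB1.5 window a GLK site 89 bases before it. The RBCS2B window held a G-box 123 bases before the start, between I-boxes at 146, 115 and 94 bases, and the RBCS1B window held none of the 4 motifs. These starts are those of the RefSeq gene models, and a shorter RBCS1B transcript begins inside the gene model. The result therefore speaks only of these letters in this window. All 27443 RefSeq windows of this length were searched, and the G-box was found in 8 of the 44 genes (18.2%) and in 6.49% of all windows, the I-box in 10 of the 44 genes (22.7%) and in 12.3% of all windows, the CCA1 site in 5 of the 44 genes (11.4%) and in 6.69% of all windows and the GLK site in 10 of the 44 genes (22.7%) and in 10.2% of all windows. None of the 8 LHCII windows held a G-box, and 4 of them held a GLK site. The matches describe sequence, and binding was not measured.

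Together the 44 genes took 7.86% to 16.8% of all gene counts in a library, with a median of 12.3%. At 1 h the share was 11.6% ± 0.835 in 21WL (mean ± SD, n = 2), 11.3% ± 0.238 (21FR), 11.8% ± 0.127 (30WL) and 12.3% ± 0.832 (30FR), and the groups overlapped or lay close to each other. At 3 h it was 13.6% ± 0.158 in 21WL and 12.2% ± 0.196 in 21FR, but 15.7% ± 0.242 in 30WL and 16% ± 1.14 in 30FR, so that all 4 libraries at 30 °C lay above all 4 at 21 °C. By 6 h the order had turned, with 15.1% ± 0.949 in 21WL, 14.4% ± 0.917 (21FR), 13.7% ± 0.0378 (30WL) and 13.4% ± 1.13 (30FR), and the warm and cool libraries overlapped.

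At 24 h 30FR stood apart with a share of 7.96% ± 0.143, against 11.3% ± 1.03 in 21WL, 10.2% ± 0.192 in 21FR and 11.5% ± 0.675 in 30WL. Both 30FR libraries at this time lay below each of the other 30 libraries. The summed root markers ran from 2482 to 2698 cpm in the 30FR libraries at 24 h, against 3039 to 3916 cpm in 21WL, 3201 to 3525 cpm in 21FR and 3432 to 3846 cpm in 30WL. The root sum was therefore also lowest in 30FR among the groups at this time, and its part in the fall of the share was not tested. That sum came mostly from PYK10, while the root markers EXPA7 and CASP5 were higher in 30FR than in 21WL at 24 h.

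**Figure D1:**
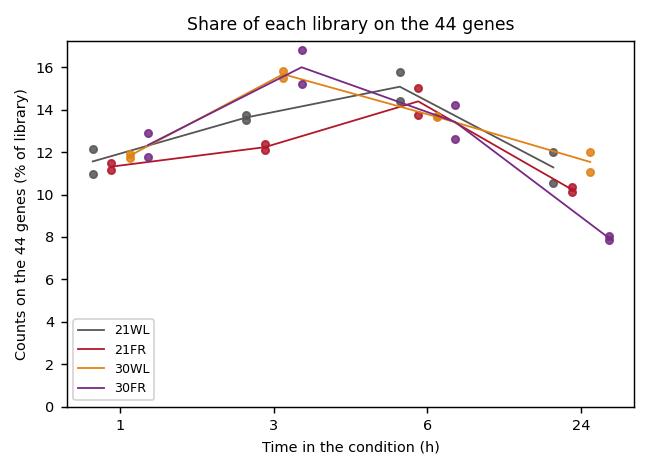
Percent of all gene counts on the 44 genes (y axis) by time of treatment in h (x axis, evenly spaced) in 21WL, 21FR, 30WL and 30FR, each point a library and each line the mean of 2. The share rises to 16% in 30FR at 3 h and is 7.96% there at 24 h.

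Each treatment was compared with 21WL of the same time, and a gene is said to have risen or fallen where the Benjamini-Hochberg adjusted p (FDR) of edgeR's quasi-likelihood test over all 20145 genes was under 0.05. The ± after a log2 fold change (log2FC) is its standard error. The 3 treatments share the 21WL libraries at each time, so their values are given side by side. In shade alone no member passed the test before 24 h. The background in 21FR at 1 h was 0.328% of all genes called higher and 0.00993% lower, against 0 of 44 members, and it was 0.343% and 0.134% at 3 h and 0.645% and 0.169% at 6 h, also against 0 members. At an unadjusted p under 0.05, 0 members passed at 1 h, 6 at 3 h and 1 at 6 h, all lower, and DESeq2 called 0 at each of these times. Each background here and below is for the edgeR FDR, and none was computed for unadjusted p or for DESeq2. The median log2FC of the 44 genes at 3 h was −0.18, with 44 of 44 below 0, against a median within 0.03 of 0 for all genes in each comparison with 21WL. These signs come from the same libraries and are not independent, and the genes were not tested as a set. At 24 h, 7 members fell in 21FR (15.9% against a background of 0.382%) and 0 rose (background 0.278%), and DESeq2 gave 16 lower and 0 higher. The 7 numbered 4 without 21WL replicate 2 and 3 without either 21FR replicate.

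In warmth alone members were called both ways, and the share that fell was above the background only at 6 h. In 30WL at 1 h, 2 members rose (background 11.8%) and 1 fell (background 11.1%), with a median log2FC of 0.08. The 2 that rose numbered 0 without 21WL replicate 1 or 30WL replicate 2 and 1 without 30WL replicate 1. At 3 h, 8 rose (18.2% of members, background 10.4%) and 1 fell (2.27%, background 9.71%), with a median of 0.23. At 6 h, 0 rose (background 6.42%, with 1 at an unadjusted p under 0.05 and 0 with DESeq2). At that time 4 fell (9.09%, background 5.92%), with a median of −0.18. The 8 that rose at 3 h numbered 5 without 21WL replicate 1, 4 without 21WL replicate 2 and 5 without 30WL replicate 2, and the 4 that fell at 6 h numbered 0 without 21WL replicate 2 and 1 without 30WL replicate 1. At 24 h, 8 rose (18.2%, background 5.58%) and 2 fell (4.55%, background 6.73%), with a median of 0.0029. At 1 h both shares of members, 4.55% higher and 2.27% lower, lay below the background. The 8 that rose at 24 h numbered 3 without 21WL replicate 2 and 2 without 30WL replicate 1, and the 2 that fell numbered 9 without 21WL replicate 1 and 0 without either 21WL replicate 2 or 30WL replicate 1.

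Under both signals together some members rose by 3 h and most fell by 24 h. In 30FR at 1 h, 6 members rose (13.6% of members, background 15.6%) and 1 fell (2.27%, background 15.9%), with a median log2FC of 0.16. Both shares at 1 h lay below the background. At 3 h, 16 rose (36.4%, background 12.3%) and 1 fell (2.27%, background 11.8%), with a median of 0.28. At 6 h, 1 rose (2.27%, background 12%) and 9 fell (20.5%, background 9.96%), with a median of −0.19. At 24 h, 38 of 44 fell (86.4% of members against a background of 12%) and 0 rose (9.29%; 0 at an unadjusted p under 0.05 and 0 with DESeq2), with a median of −0.74.

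The 38 that fell at 24 h numbered 29 (without 21WL replicate 2) to 40 when each library was left out in turn. Scaled by library size alone, 34 members fell, with a median of −0.53, while the median of all genes in that comparison moved to 0.21. The 16 that rose at 3 h numbered 3 without 30FR replicate 1, 5 without 21WL replicate 1 and 8 without 21WL replicate 2. The 6 that rose at 1 h numbered 2 without 21WL replicate 1 and 3 without 30FR replicate 1, and the 9 that fell at 6 h numbered 1 without 21WL replicate 2 and 2 without 30FR replicate 2. The 1 that rose at 6 h was lost without 21WL replicate 1 or 30FR replicate 1. LHCB4.3 and RBCS2B were called in none of the 12 comparisons with 21WL.

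**Figure D2:**
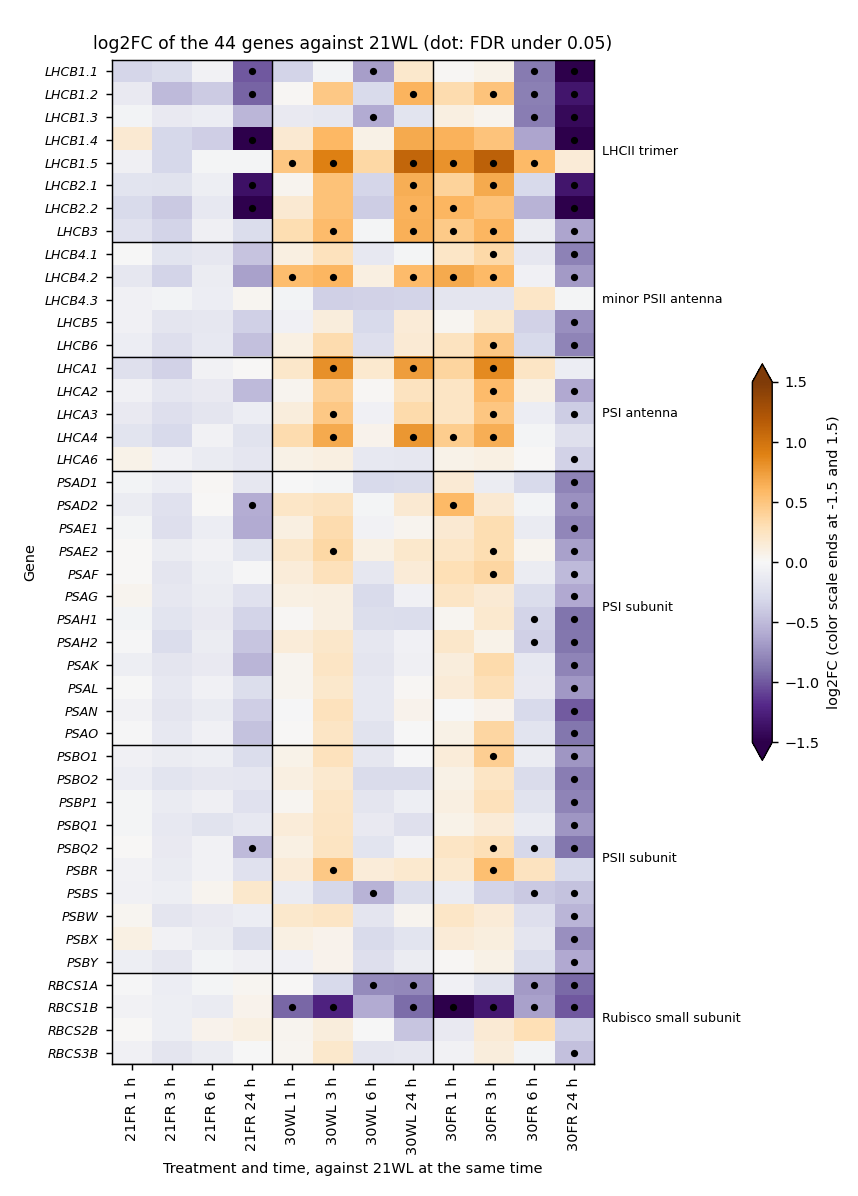
Log2FC over 21WL of the same time (colour) for each of the 44 genes (rows, by role) in 21FR, 30WL and 30FR at 1, 3, 6 and 24 h (columns); a dot marks FDR under 0.05. The 30FR column at 24 h holds 38 marked decreases, and the 21FR columns before 24 h hold no mark.

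At 24 h members of every role group fell in 30FR. The LHCII genes had the lowest group median, with 7 of 8 lower and a log2FC of −1.38 at the median, and 4 of the 5 minor PSII antenna genes fell with a median of −0.75. All 12 PSI subunit genes fell, from −0.99 for PSAN to −0.50 for PSAF, with a median of −0.79. Of the PSII subunit genes 9 of 10 fell, led by PSBQ2 at −0.87, with a median of −0.71, and PSBR was at −0.30 without passing the test. Of the PSI antenna genes 3 of 5 fell, with a median of −0.35, and of the Rubisco small subunit genes 3 of 4, with a median of −0.70. The 6 genes that did not pass were LHCB1.5 (0.15), LHCB4.3 (−0.03), LHCA1 (−0.10), LHCA4 (−0.22), PSBR and RBCS2B (−0.35).

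The single treatments gave other orders at 24 h. In 21FR the group medians were −0.98 for LHCII, −0.44 for the minor PSII antennae, −0.35 for PSI subunits, −0.19 for PSII subunits, −0.17 for the PSI antenna and 0.04 for Rubisco. In 30WL they were 0.63 for LHCII, 0.34 for the PSI antenna and 0.15 for the minor PSII antennae, but 0.0029 for PSI subunits, −0.10 for PSII subunits and −0.60 for Rubisco. The LHCII median was thus below 0 in shade, above 0 in warmth and below 0 in both.

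**Figure D3:**
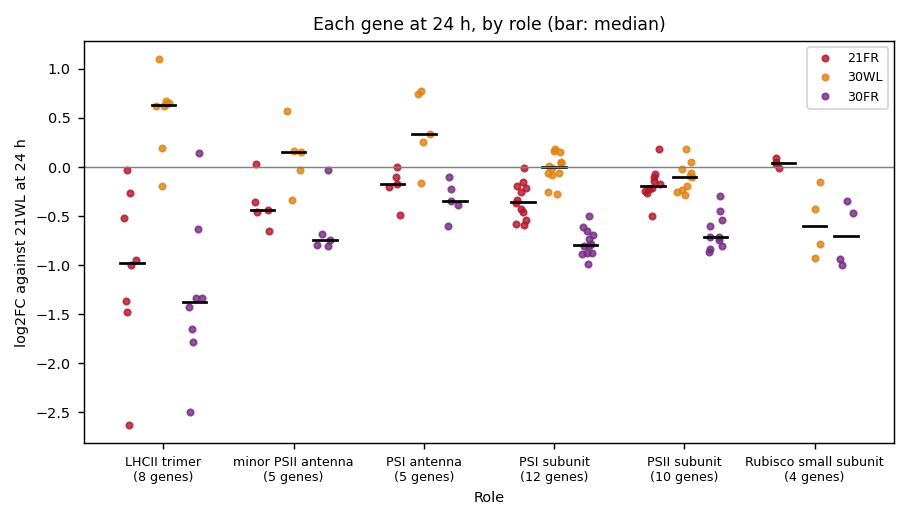
Log2FC over 21WL at 24 h (y axis) of each of the 44 genes (points), grouped by role (x axis) and coloured by treatment, with a bar at each group median. The LHCII medians are −0.98 in 21FR, 0.63 in 30WL and −1.38 in 30FR.

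Among the LHCII genes, LHCB1.4 fell furthest. At 24 h it measured 862 and 488 cpm in replicates 1 and 2 of 21WL, 127 and 91.2 (21FR), 1340.3 and 809 (30WL) and 103 and 136 (30FR). All 4 low red to far-red libraries lay below all 4 white-light libraries. The log2FC over 21WL was −2.63 ± 0.27 (SE) in 21FR (FDR = 6.31e-06), −2.50 ± 0.27 in 30FR (FDR = 2.88e-06) and 0.67 ± 0.26 in 30WL (FDR = 0.0911), and 30FR lay below 30WL (log2FC −3.17 ± 0.28, FDR = 1.08e-06). At 1 h the gene stood at 910.3 and 1055 cpm (21WL), 1213 and 994 (21FR), 1018 and 1190.3 (30WL) and 1497 and 1527 (30FR), with no call in any treatment. At 3 h it stood at 1647 and 1455 cpm (21WL), 1279 and 1218 (21FR), 2389 and 2298 (30WL) and 2687 and 1745 (30FR), the 30 °C libraries being the higher ones.

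The LHCB2 genes were also lowest in the low red to far-red libraries at 24 h. LHCB2.2 measured 339 and 277 cpm (21WL), 116 and 105 (21FR), 549 and 400.5 (30WL) and 88.2 and 108 (30FR), and LHCB2.1 421 and 381 cpm (21WL), 176 and 136 (21FR), 716 and 547 (30WL) and 151 and 167 (30FR). For both genes the 4 low red to far-red libraries were lowest and both 30WL libraries highest, and the 3 sets did not overlap. LHCB2.2 changed by −1.48 ± 0.21 (FDR = 2.86e-04) in 21FR, by −1.65 ± 0.21 (FDR = 1.34e-05) in 30FR and by 0.62 ± 0.20 (FDR = 0.0462) in 30WL on the log2 scale. LHCB2.1 changed by −1.36 ± 0.19 (FDR = 3.23e-04), −1.33 ± 0.19 (FDR = 5.98e-05) and 0.66 ± 0.19 (FDR = 0.0265) in the same order. The rise in 30WL was not called without 21WL replicate 2 (LHCB2.2 0.49, FDR = 0.298; LHCB2.1 0.59, FDR = 0.181) or without 30WL replicate 1 (0.38, FDR = 0.4, and 0.45, FDR = 0.277). These are also the 2 genes with the smallest unique share of sequence, so reads common to both are not in the counts.

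The 3 LHCB1 genes on chromosome 1 fell in 30FR too. LHCB1.1 measured 1413 and 1829.6 cpm (21WL), 879 and 743 (21FR), 2017 and 1684 (30WL) and 454 and 489 (30FR) at 24 h, with 30FR lowest and 21FR next. Its log2FC was −1.0 ± 0.21 (FDR = 0.0177) in 21FR and −1.78 ± 0.21 (FDR = 6.87e-06) in 30FR. LHCB1.2, its neighbour, measured 1711 and 1353 cpm (21WL), 821 and 763 (21FR), 2684 and 2019.7 (30WL) and 580.2 and 634 (30FR), the same order of groups, with a log2FC of −0.95 ± 0.18 (FDR = 0.0101) in 21FR, 0.62 ± 0.18 (FDR = 0.0304) in 30WL and −1.34 ± 0.19 (FDR = 4.33e-05) in 30FR. The 21FR calls rested on single libraries. LHCB1.1 was at −0.81 (FDR = 0.223) without 21WL replicate 2, −1.13 (FDR = 0.101) without 21FR replicate 1 and −0.88 (FDR = 0.336) without 21FR replicate 2. LHCB1.2 was at −0.77 (FDR = 0.0954) without 21WL replicate 1, −1.01 (FDR = 0.111) without 21FR replicate 1 and −0.90 (FDR = 0.205) without 21FR replicate 2, and its 30WL value was 0.46 (FDR = 0.267) without 21WL replicate 2 and 0.40 (FDR = 0.321) without 30WL replicate 1.

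LHCB1.3, the most highly expressed antenna gene per length, was already lower at 6 h in both warm treatments. It measured 9784 and 11547 cpm (21WL), 10204 and 9673 (21FR), 6902 and 7204 (30WL) and 6229.6 and 5737 (30FR). All 4 libraries at 30 °C lay below all 4 at 21 °C. The log2FC was −0.60 ± 0.13 (FDR = 0.00375) in 30WL and −0.83 ± 0.13 (FDR = 9.05e-05) in 30FR, and the 30WL call was lost without 21WL replicate 2 (−0.47, FDR = 0.0664) and held without 30WL replicate 1. At 24 h it measured 6241 and 7361 cpm (21WL), 4866 and 4632 (21FR), 6212 and 5667 (30WL) and 2485 and 2584 (30FR), so that 30WL lay just below 21WL and 30FR stood lowest. Against 21WL, 30FR was at −1.42 ± 0.13 (FDR = 3.26e-07) and 21FR at −0.52 ± 0.12 (FDR = 0.0611), and 30FR lay below 30WL with a log2FC of −1.23 ± 0.13 (FDR = 5.70e-06). LHCB1.1 at 6 h gave 3674 and 4602 cpm (21WL), 4459 and 3544 (21FR), 2730.5 and 2503 (30WL) and 2702 and 1889.5 (30FR), with a log2FC of −0.66 ± 0.20 (FDR = 0.0373) in 30WL and −0.85 ± 0.20 (FDR = 0.00517) in 30FR, and without 21WL replicate 2 these were −0.49 (FDR = 0.268) and −0.69 (FDR = 0.0716). The 30WL value was −0.73 (FDR = 0.116) without 30WL replicate 1 and −0.60 (FDR = 0.169) without 30WL replicate 2, and the 30FR value −0.61 (FDR = 0.0927) without 30FR replicate 2.

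LHCB1.5 was higher in warmth at every early time. At 1 h it measured 2389 and 3035 cpm (21WL), 2797 and 2335 (21FR), 3509 and 4087 (30WL) and 5012 and 4417 (30FR). At 3 h the values were 4513 and 4662 cpm (21WL), 3679.6 and 3743 (21FR), 8492 and 8680.2 (30WL) and 11492 and 8548 (30FR), and at 6 h 5451 and 6439.6 cpm (21WL), 5846 and 5800.2 (21FR), 7779 and 7471 (30WL) and 9957 and 7781 (30FR). At each of these times the 30 °C libraries lay above all those at 21 °C. The log2FC in 30FR was 0.80 ± 0.17 (FDR = 0.00135) at 1 h, 1.13 ± 0.17 (FDR = 8.00e-05) at 3 h and 0.58 ± 0.17 (FDR = 0.0191) at 6 h, and in 30WL 0.49 ± 0.17 (FDR = 0.0438), 0.90 ± 0.17 (FDR = 7.89e-04) and 0.36 ± 0.17 (FDR = 0.182). Without 21WL replicate 1 the 1 h value in 30WL was 0.32 (FDR = 0.303) and the 6 h value in 30FR 0.42 (FDR = 0.203). The 1 h value was also 0.59 (FDR = 0.0525) without 30WL replicate 1 and 0.37 (FDR = 0.255) without 30WL replicate 2, and the 6 h value 0.39 (FDR = 0.21) without 30FR replicate 1.

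At 24 h LHCB1.5 measured 3047 and 2385 cpm (21WL), 2521 and 2788 (21FR), 6639.8 and 5013 (30WL) and 2815 and 3194 (30FR). The 30WL libraries stood above the rest, and the 21WL, 21FR and 30FR values overlapped. The log2FC was 1.1 ± 0.17 (FDR = 3.98e-04) in 30WL and 0.15 ± 0.17 (FDR = 0.588) in 30FR, and 30FR lay below 30WL with −0.96 ± 0.17 (FDR = 0.0029), or −0.74 (FDR = 0.105) without 30WL replicate 1 and −0.87 (FDR = 0.0754) without 30FR replicate 1. The make-up of the LHCB1 messages can be given as shares of their counts. LHCB1.5 supplied 16.7% ± 0.445 of the counts on the 5 LHCB1 genes in 21WL at 1 h (mean ± SD, n = 2), and at 24 h 20.4% ± 3.66 in 21WL, 29.1% ± 2.52 in 21FR, 34.1% ± 1.52 in 30WL and 44.6% ± 1.17 in 30FR. Its head-to-head neighbour LHCB1.4 supplied 5.07% ± 2.02, 1.19% ± 0.259, 6.21% ± 1.25 and 1.76% ± 0.231 in the same order. These shares are descriptive and were not tested.

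**Figure D4:**
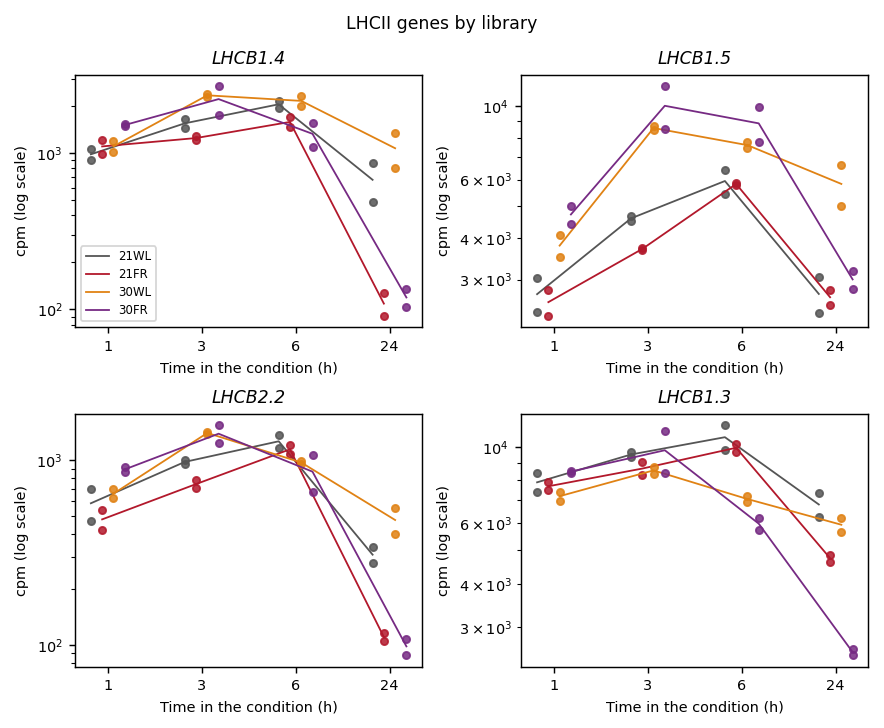
Levels in cpm (y axis, log scale) of the LHCII genes LHCB1.4, LHCB1.5, LHCB2.2 and LHCB1.3 by time in h (x axis, evenly spaced) in 21WL, 21FR, 30WL and 30FR, each point a library and each line the mean of 2. At 24 h the 30FR and 21FR points of LHCB1.4 lie together, near 91.2 to 136 cpm, while LHCB1.5 is highest in 30WL, at 5013 and 6639.8 cpm.

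In the PSI antenna, LHCA1 was the gene with the smallest FDR and followed the warm rise. At 3 h it measured 3837 and 4284 cpm (21WL), 3339 and 3026 (21FR), 6979.6 and 7324 (30WL) and 8404 and 6266 (30FR), with no overlap between temperatures. The log2FC was 0.82 ± 0.16 (FDR = 9.27e-04) in 30WL and 0.85 ± 0.16 (FDR = 5.10e-04) in 30FR. At 24 h the levels were 2176 and 2237 cpm (21WL), 2169.5 and 2253 (21FR), 3926 and 3491 (30WL) and 2108 and 2016 (30FR), and only 30WL stood above the other groups. The log2FC there was 0.75 ± 0.16 (FDR = 0.00397) in 30WL and −0.10 ± 0.16 (FDR = 0.708) in 30FR, and 30FR lay below 30WL with −0.85 ± 0.16 (FDR = 0.0042). Without 30WL replicate 1 the rise in 30WL was 0.66 (FDR = 0.0578) and the gap between 30FR and 30WL −0.76 (FDR = 0.0821), and without 30FR replicate 2 that gap was −0.82 (FDR = 0.091).

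Among the minor PSII antennae, LHCB4.1 measured 3239 and 3198 cpm (21WL), 2859.7 and 2778 (21FR), 3876 and 3836 (30WL) and 4599.7 and 3596 (30FR) at 3 h and 2132 and 2520.5 cpm (21WL), 1687 and 1750.1 (21FR), 2439 and 2112 (30WL) and 1267 and 1389.7 (30FR) at 24 h. At 3 h all 4 libraries at 30 °C lay above all 4 at 21 °C, and at 24 h both 30FR libraries were the lowest. The log2FC in 30FR was 0.35 ± 0.12 (FDR = 0.044) at 3 h and −0.81 ± 0.12 (FDR = 1.13e-04) at 24 h. The first of these calls was lost without 21WL replicate 1 (0.34, FDR = 0.161), without 21WL replicate 2 (0.34, FDR = 0.158) or without 30FR replicate 1 (0.15, FDR = 0.524). LHCB4.3, the least expressed of the 44 genes per length, ranged from 87.6 to 197 cpm over all 32 libraries and was called in no comparison with 21WL.

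In the photosystem cores, PSAN had the smallest FDR of the PSI subunits. It measured 701 and 881 cpm (21WL), 618 and 606 (21FR), 847 and 789 (30WL) and 399 and 395 (30FR) at 24 h. Both 30FR libraries lay below the other 6, and 30WL overlapped 21WL. The log2FC of 30FR was −0.99 ± 0.11 (FDR = 4.21e-06) over 21WL, −1.04 ± 0.11 (FDR = 8.65e-06) over 30WL and −0.62 ± 0.11 (FDR = 4.99e-04) over 21FR. PSBQ2, an extrinsic PSII protein gene, measured 994 and 1104 cpm (21WL), 734 and 751 (21FR), 1043 and 975 (30WL) and 576 and 572 (30FR), the low red to far-red libraries again being the lower ones. It fell in 21FR (−0.50 ± 0.10, FDR = 0.0145) and in 30FR (−0.87 ± 0.10, FDR = 5.91e-06). The 21FR value was −0.43 (FDR = 0.179) without 21WL replicate 2, −0.48 (FDR = 0.218) without 21FR replicate 1 and −0.52 (FDR = 0.154) without 21FR replicate 2.

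The early rise in 30FR at 3 h included antenna and core genes, with 16 of 44 members called higher (36.4%, background 12.3%). Many of these calls depended on single libraries, as given above. With each library left out in turn, the median of the 44 genes ran from 0.16 (without 30FR replicate 1) to 0.39. In all, 4 of 8 LHCII genes, 3 of 5 minor PSII antenna genes, 4 of 5 PSI antenna genes, 2 of 12 PSI subunit genes, 3 of 10 PSII subunit genes and no RBCS gene rose. The medians of these groups were 0.51, 0.35, 0.57, 0.24, 0.19 and −0.04. The largest increases were those of LHCB1.5 (1.13), LHCA1 (0.85), LHCB2.1 (0.67) and LHCA4 (0.65), and among the core subunits PSBR (0.54) and PSBO1 (0.42) rose most. LHCB2.1 was at 0.46 (FDR = 0.189) without 30FR replicate 1, 0.62 (FDR = 0.0944) without 21WL replicate 1 and 0.71 (FDR = 0.0513) without 21WL replicate 2. The 8 genes that rose in 30WL at 3 h were LHCB1.5 (0.90), LHCA1 (0.82), LHCA4 (0.68), LHCB4.2 (0.60), LHCB3 (0.57), PSBR (0.48), LHCA3 (0.47) and PSAE2 (0.36). The summed root markers at 3 h ran from 2557 to 3532 cpm in 21WL, 2448 to 3125 cpm in 30WL and 2293 to 2464 cpm in 30FR, and their part in the rise was not tested.

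Of the Rubisco small subunit genes, RBCS1B was the first to fall, within 1 h of warmth. At 1 h it measured 1950.4 and 1915 cpm (21WL), 1785 and 1934 (21FR), 1098 and 914 (30WL) and 698 and 660.2 (30FR), and at 3 h 1445 and 1714 cpm (21WL), 1499.7 and 1472 (21FR), 665 and 672 (30WL) and 695 and 581 (30FR). At both times all 4 libraries at 30 °C lay below all 4 at 21 °C. The log2FC in 30FR was −1.51 ± 0.20 (FDR = 1.31e-05) at 1 h and −1.31 ± 0.20 (FDR = 8.90e-05) at 3 h, and in 30WL −0.94 ± 0.20 (FDR = 0.00179) and −1.24 ± 0.20 (FDR = 1.94e-04). RBCS1B was the only member that fell in either warm treatment at 1 h or 3 h. Its share of the RBCS counts at 1 h was 4.48% ± 0.248 in 21WL, 4.39% ± 0.174 in 21FR, 2.35% ± 0.161 in 30WL and 1.71% ± 0.156 in 30FR (mean ± SD, n = 2).

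The later calls of this gene rested on single libraries. At 6 h RBCS1B gave 1082 and 1163 cpm (21WL), 1143 and 925 (21FR), 738 and 754 (30WL) and 688 and 739.8 (30FR), with a log2FC of −0.59 ± 0.20 (FDR = 0.0565) in 30WL and −0.65 ± 0.20 (FDR = 0.0229) in 30FR, the latter not called without single libraries. Without 21WL replicate 2 the latter was −0.61 (FDR = 0.111), without 30FR replicate 1 −0.60 (FDR = 0.125) and without 30FR replicate 2 −0.71 (FDR = 0.0707). At 24 h it gave 1342 and 2807 cpm (21WL), 2239.9 and 2058 (21FR), 1047 and 1138 (30WL) and 1080.1 and 993 (30FR), with 21WL replicate 2 far above replicate 1. The log2FC was −0.92 ± 0.20 (FDR = 0.00472) in 30WL and −1.0 ± 0.20 (FDR = 0.00121) in 30FR, but without 21WL replicate 2 it was −0.29 (FDR = 0.265) and −0.37 (FDR = 0.113), and without 30WL replicate 1 the 30WL value was −0.87 (FDR = 0.065).

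RBCS1A, the main small subunit gene, was lower in warmth from 6 h. It measured 25538 and 30343 cpm (21WL), 29552 and 25227 (21FR), 15313 and 17609 (30WL) and 16177 and 18698 (30FR) at 6 h and 21778 and 33439.9 cpm (21WL), 27936 and 28363 (21FR), 15379.8 and 16700.5 (30WL) and 14917 and 13969 (30FR) at 24 h. At both times all libraries at 30 °C lay below all those at 21 °C, and the same 21WL replicate 2 was the highest at 24 h. In 30WL the log2FC was −0.76 ± 0.16 (FDR = 0.00353) at 6 h and −0.78 ± 0.16 (FDR = 0.00303) at 24 h, and in 30FR −0.68 ± 0.16 (FDR = 0.00416) and −0.93 ± 0.16 (FDR = 3.15e-04). Without 21WL replicate 2 the 6 h values were −0.64 (FDR = 0.0573) in 30WL and −0.56 (FDR = 0.0634) in 30FR, and the 24 h value in 30WL was −0.44 (FDR = 0.114). The 30WL calls were also lost without 30WL replicate 1, at −0.67 (FDR = 0.0566) for 6 h and −0.73 (FDR = 0.054) for 24 h, as was the 6 h call in 30FR without 30FR replicate 1, at −0.58 (FDR = 0.0549). RBCS1A made up 61.7% to 64.8% of RBCS counts in every library at 21 °C and 50.7% to 64.6% at 30 °C.

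RBCS2B and RBCS3B had the smallest fold changes of the family in 30FR at 24 h. At 24 h RBCS2B measured 4430.4 and 6480.5 cpm (21WL), 5759 and 5835 (21FR), 3791 and 4329 (30WL) and 4495 and 4085 (30FR), and RBCS3B 7534 and 10751 cpm (21WL), 9204 and 9009.8 (21FR), 8471 and 7932 (30WL) and 6751 and 6469.7 (30FR). For both genes 21WL replicate 2 was the highest library. RBCS2B was at −0.43 ± 0.14 (FDR = 0.0511) in 30WL and −0.35 ± 0.14 (FDR = 0.0841) in 30FR, and was called in no comparison with 21WL. RBCS3B fell in 30FR (−0.47 ± 0.14, FDR = 0.0167), and was at −0.19 (FDR = 0.438) without 21WL replicate 2, −0.50 (FDR = 0.0596) without 30FR replicate 1 and −0.44 (FDR = 0.123) without 30FR replicate 2.

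**Figure D5:**
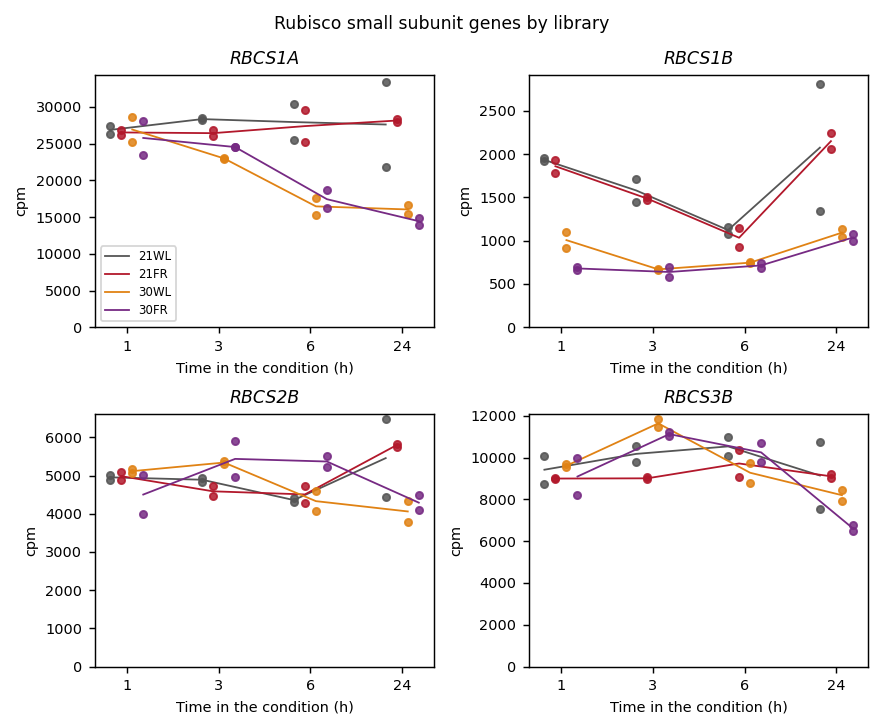
Levels in cpm (y axis, linear scale) of the 4 Rubisco small subunit genes by time in h (x axis, evenly spaced) in 21WL, 21FR, 30WL and 30FR, each point a library and each line the mean of 2. RBCS1B is lower at 30 °C from 1 h, between 660.2 and 1098 cpm there, and 21WL replicate 2 at 24 h, at 2807 cpm, is the highest RBCS1B point.

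Adding warmth to shade and adding shade to warmth were compared directly, to ask what the second signal does in the presence of the first. Adding warmth (30FR over 21FR) raised members early and lowered them late. At 1 h, 9 rose (20.5% of members, background 14.2%) and 1 fell (2.27%, background 14.1%), with a median of 0.20. The share that rose was not above the background without 21FR replicate 2 (median 0.19) or without 30FR replicate 1 (median 0.12). At 3 h, 30 rose (68.2%, background 14.3%) and 1 fell (2.27%, background 14.7%), with a median of 0.42. At 6 h, 1 rose (2.27%, background 11%) and 4 fell (9.09%, background 9.37%), both below the background. At 24 h, 0 rose (background 9.5%, with 0 at an unadjusted p under 0.05 and 0 with DESeq2). At that time 26 fell (59.1%, background 11.9%), with a median of −0.40. Without 30FR replicate 1 the 30 at 3 h numbered 12, and the 26 at 24 h numbered 14 without 21FR replicate 2, 17 without 30FR replicate 1 and 13 without 30FR replicate 2. The 1 that rose at 6 h was lost without any of 21FR replicate 1, 21FR replicate 2 and 30FR replicate 1, and the 4 that fell numbered 1 without 21FR replicate 1.

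Adding shade to warmth (30FR over 30WL) called no member at 1 h (background 0.784% either way), 3 h (1.77%) or 6 h (0.422%). At an unadjusted p under 0.05, 3, 0 and 4 members passed at these times, and DESeq2 called 0 at each. At 24 h, 35 members fell (79.5% against a background of 1.33%), with a median of −0.75 and 42 of 44 genes below 0. The count was 23 without 30WL replicate 1, and its range over single libraries left out was 23 to 32. The genes that did not pass were LHCB4.3, LHCA6, PSBO2, PSBQ1, PSBS and the 4 RBCS genes.

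Whether the combined response differs from the sum of the single ones on the log2 scale was tested with an interaction term. No member passed at 1 h (background 0%), 3 h (0%), 6 h (0%) or 24 h (0.0149%). At an unadjusted p under 0.05, 3, 1, 1 and 26 members passed at these times, and DESeq2 called 0, 0, 0 and 9. These counts have no background, so they cannot be set against all genes. The median interaction was 0.12, 0.24, 0.09 and −0.42, with 43 of 44 genes above 0 at 3 h and 43 below 0 at 24 h. For all genes the medians were −0.00036, −0.0049, 0.0041 and 0.0006. The members were measured in the same libraries, so their signs are not independent, and they were not tested as a set. The smallest FDR at 24 h, 0.266, was shared by LHCB3 (−1.0 ± 0.22), a subunit of LHCII trimers, and the PSI subunits PSAE2 (−0.65 ± 0.15) and PSAN (−0.67 ± 0.16). LHCB3 measured 1877 and 2046 cpm (21WL), 1637 and 1629 (21FR), 3286 and 2826 (30WL) and 1199 and 1339 (30FR), above 21WL in both 30WL libraries and below it in both 30FR libraries.

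The genes also moved with time in seedlings that stayed in 21WL. No member differed between 3 h and 1 h (background 0.00993%; 21 at an unadjusted p under 0.05, and 2 with DESeq2). At 6 h, 12 were higher than at 1 h (27.3% against a background of 0.233%), led by LHCB1.2 (1.17), LHCB1.5 (1.13) and LHCB2.2 (1.11), and at 24 h, 5 were lower (2.41%), led by LHCB2.2 (−0.93). The 12 numbered 0 without either 21WL 1 h replicate 1 or 21WL 6 h replicate 2, and the 5 numbered 0 without 21WL 1 h replicate 2 and 3 without either 24 h library.

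From 1 h to 24 h, 21 members fell in 21FR (background 5.33%), 13 in 30WL (15.4%) and 42 in 30FR (20.8%). Against the trend LHCB1.5 rose in 30WL (0.62 ± 0.17, FDR = 0.00913) and RBCS1B in 30FR (0.61 ± 0.20, FDR = 0.0181). The LHCB1.5 value was 0.51 (FDR = 0.0975) without 30WL 1 h replicate 1 and 0.40 (FDR = 0.147) without 30WL 24 h replicate 1, and the RBCS1B value was 0.65 (FDR = 0.0597) without 30FR 1 h replicate 1, 0.57 (FDR = 0.0962) without 30FR 1 h replicate 2 and 0.55 (FDR = 0.097) without 30FR 24 h replicate 1. The 21 numbered 13 without 21FR 24 h replicate 1, and the 14 called either way in 30WL numbered 8 without either 1 h library and 7 without 24 h replicate 2. Light was constant, and times of day were not analysed here, so treatment time and clock time cannot be told apart within a condition.

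Set against 21WL, the treatment effect at 24 h was compared with that at 1 h. In 21FR 1 member differed (background 0.0745% lower), and in 30WL 0 (1.84% either way; 7 at an unadjusted p under 0.05, and 1 with DESeq2). In 30FR 35 of 44 had a lower effect at 24 h (79.5% against a background of 4.13%), with a median difference of −0.88. The 1 member in 21FR, LHCB1.4, was lost without 21FR 24 h replicate 2, and without 21WL 24 h replicate 1 the 0 in 30WL became 2.

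Other genes of the pathway, outside the 44, give the surroundings of these changes, with the same background percentages. Of 7 further photosystem and antenna genes, 5 fell in 30FR at 24 h, with a median of −0.98, led by the third LHCB2 gene, LHCB2.3 (−2.19 ± 0.22, FDR = 1.41e-06), which was also lower in 21FR (−2.0 ± 0.22, FDR = 1.78e-05). The PSII gene PSBTN was at −1.03 ± 0.12 and the PSI antenna gene LHCA5 at −0.98 ± 0.13 in 30FR. Of 14 electron transport genes, 12 fell and 2 rose in 30FR at 24 h, with a median of −0.57, while the ferredoxin gene FD1 rose in 30FR at 1 h (0.99 ± 0.12, FDR = 2.74e-06) and PGRL1B, a gene for cyclic electron flow, at 6 h (1.17 ± 0.18, FDR = 1.05e-04). The plastocyanin gene PETE1 fell in 21FR at 24 h (−0.76 ± 0.11, FDR = 3.02e-04).

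Of 17 Calvin cycle genes, 15 fell in 30FR at 24 h, with a median of −0.61, including the glyceraldehyde-3-phosphate dehydrogenase genes GAPA1 (−0.83 ± 0.11, FDR = 3.76e-05) and GAPA2 (−0.92 ± 0.14, FDR = 1.06e-04). In 30WL at that time 7 of the 17 fell. Of 11 regulators of chloroplast genes, 4 fell in 30FR at 24 h, and the sigma factor genes SIG4 (0.81 ± 0.13, FDR = 1.77e-04) and SIG3 (0.38 ± 0.07, FDR = 6.16e-04) rose in 30FR at 6 h, as did GLK2, an activator of antenna genes, at 1 h (0.51 ± 0.10, FDR = 6.53e-04). Others of the list went the other way. The second GLK gene, GLK1, fell in 30WL at 1 h (−0.71 ± 0.18, FDR = 0.00788), and SIG6 fell in 30FR at 1 h (−0.48 ± 0.11, FDR = 0.00185). Of the 8 root markers, EXPA7 (0.70) and CASP5 (1.0) rose in 30FR at 24 h, and PYK10 was at −0.48 ± 0.18 (FDR = 0.0617).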

How the data were processed

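Poly(A) RNA was sequenced from whole Col-0 seedlings in 16 groups of 2 libraries. Per the submitters' processing notes, the authors used CASAVA 1.8.2, STAR 2.5.4, HTSeq 0.6.0 and edgeR 3.16.5 with the TAIR10 build, and deposited raw counts per gene for each library. They also deposited a normalized signal for 19718 genes, each count times 1 factor per library, which was not tested. The counting took strand into account. HTSeq leaves multiply mapped reads uncounted, so near-identical copies are counted in part. The 5 summary lines were left out. They held 10.5% to 50.4% (multiply mapped), 2.47% to 3.58% (no gene) and 0.262% to 0.529% (ambiguous) of the reads.

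Here the counts of all 32 libraries were fitted with edgeR 4.0.16 (R 4.3.3) by glmQLFit and glmQLFTest, with TMM factors, 1 coefficient per group, a filter of over 1 cpm in at least 2 libraries and Benjamini-Hochberg adjustment over 20145 genes (FDR under 0.05). Levels are cpm on TMM-scaled library sizes, and a count of 3, taken as the floor, equals 0.106 to 0.394 cpm, for counting error only. The common biological coefficient of variation was 0.115. The scripts were tested on simulated data. Alternatives were the likelihood ratio test, DESeq2 1.42.0, DESeq2 size factors, library size alone, TMM without the members, no filter, a replicate block, each time point alone, a fold threshold, and each replicate left out. Python 3.11.15 with numpy 2.4.6, pandas 2.3.3 and matplotlib 3.10.9 gave the summaries and plots.

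The members, gene lists and tests were chosen with earlier results of these data known. Values per library are given for the member of each role group with the smallest FDR over the 12 comparisons with 21WL, for members past FDR 0.05 and a log2FC of 1 in size (the 8 with the smallest FDR), and for the 4 RBCS genes. Other members may be named as highest or lowest of their group, and LHCB3, PSAE2 and PSAN were named for the interaction after their values were seen. Of genes outside the members, at most 3 per list were named. GLK1 and SIG6 were named besides these, after their values were seen.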

Additional observations from a re-analysis of the deposited data

Results flagged for a closer look

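These results differed between 24 h and 1 h of the same treatment, each measured against 21WL of its own time, by edgeR's quasi-likelihood test of the difference with Benjamini-Hochberg adjustment. In 21FR, 1 member differed, LHCB1.4, whose log2FC was lower at 24 h by a difference of −2.80. In 30FR, 35 members differed, all lower at 24 h. For the members with values per library the difference in log2FC was −3.12 for LHCB1.4, −2.26 for LHCB2.2, −1.80 for LHCB1.1, −1.73 for LHCB2.1, −1.66 for LHCB1.2, −1.53 for LHCB1.3, −1.10 for PSBQ2, −1.03 for LHCB4.1, −0.98 for PSAN and −0.87 for RBCS1A. Both 24 h libraries of 30FR lay below both 1 h libraries for each of these 10 genes. These genes had already been called from the same libraries, so their levels are no separate support. From 1 h to 24 h in 30FR, 42 of 44 members and 20.8% of all genes fell. The LHCB1.4 value in 21FR was −2.58 (FDR = 0.0504) without 21FR 24 h replicate 2. RBCS1A (FDR = 0.0223) lost its call when any of 6 of its 8 libraries was left out, with −0.53 (FDR = 0.122) without 21WL 24 h replicate 2.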

How the results depend on the processing

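Of 53 counts of members called, none moved by over 1.5 times with TMM factors computed without the members, with no filter on low counts or with the replicate block. The replicate numbers are only shared: of 120 pairs of groups, deviations of replicate 1 correlated over 0.1 in 36 and under −0.1 in 32 (range −0.51 to 0.60), and with the replicate block 38 members fell in 30FR at 24 h, as without it. Where a count moved, the cause was not tested. With DESeq2, higher members in 30FR at 1 h went from 6 to 10, lower ones in 30WL at 6 h from 4 to 7, in 30FR at 6 h from 9 to 15, in 21FR at 24 h from 7 to 16 and in 30FR over 21FR at 6 h from 4 to 7. The interaction at 24 h went from 0 to 9 with DESeq2 and to 2 with the likelihood ratio test, which also gave 12 lower in 21FR at 24 h. Within 21WL, 2 members differed at 3 h with either tool, and 26 (DESeq2) or 20 (likelihood ratio test) at 6 h in place of 12. For 24 h against 1 h, both tools gave 3 in 21FR in place of 1 and 1 in 30WL in place of 0. DESeq2 size factors gave 14 lower in 30FR at 6 h.

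Scaling by library size alone moved the median of all genes by −0.05 to 0.29. It gave 14 higher in 30WL at 3 h, 2 lower in 30FR at 3 h, 3 higher in 30FR at 6 h over either 21WL or 21FR, 21 in 21WL at 6 h over 1 h, and 1 in 30WL for 24 h against 1 h. Each time point fitted alone, on fewer libraries, gave 2 lower in 30FR at 3 h, 1 lower in 30WL and 0 higher and 4 lower in 30FR at 6 h, 4 lower in 21FR and 0 lower in 30WL at 24 h, 0 higher at 6 h and 16 lower at 24 h for 30FR over 21FR, and 21 lower at 24 h for 30FR over 30WL. A log2FC over 1 in size, asked for besides the FDR, left at 1 h 0 higher in 30WL and 30FR, 0 lower in 30WL and 1 lower in 30FR, at 3 h 1 higher in 30FR and 0 higher in 30WL, 0 either way at 6 h, 3 lower in 21FR, 1 higher and 0 lower in 30WL and 7 lower in 30FR at 24 h. For 30FR over 21FR it left 0, 3, 0 and 0 higher and 1, 1, 0 and 1 lower at 1, 3, 6 and 24 h. It left 9 for 30FR over 30WL at 24 h, 4 and 0 for 6 h and 24 h over 1 h in 21WL, 5, 0 and 23 for 24 h over 1 h in 21FR, 30WL and 30FR, and 13 for 24 h against 1 h in 30FR. When each library was left out in turn, 21 counts moved, and 30FR over 21FR gave 12 to 29 higher at 3 h and 13 to 18 lower at 24 h; 3 of the 12 medians over 21WL changed sign in some such fit.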
